A study of Mus musculus with 4 samples.

Results

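Chemokines are small secreted or membrane-bound proteins that bind receptors coupled to G proteins and guide the movement of leukocytes. The genes examined were the CXC and CX3C chemokine and receptor genes of the series other than Cxcl12 and its receptors, 10 of 33696 gene features, chosen by name. Of the ligands, Cxcl9 and Cxcl10 are induced by interferons and act on Cxcr3 of activated T cells. Cxcl1 attracts neutrophils through Cxcr2, Cxcl13 attracts B cells through Cxcr5, and Cxcl14 is a homeostatic chemokine. Cxcl16 and Cx3cl1 (fractalkine) are made as membrane proteins that proteases can release, and their receptors are encoded by Cxcr6, found on T cells, and Cx3cr1, the classical receptor of microglia, to which neurons present Cx3cl1. Counts of these genes were followed over cell classes, fibroblast and myeloid states, regions and libraries.

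Nuclei came from the brains of mice of both sexes, aged 7 to 21 weeks by the study's general statement, 21 days after a photothrombotic (PT) injury, a focal cortical infarct made by light activation of a dye. The library labelled control came from mice with the genotype label WT, and the library labelled Cxcl12-cKO from mice carrying Col1a2(creER) and Cxcl12(flox), in which tamoxifen-induced Cre under the Col1a2 promoter targets fibroblasts. In reporter mice of the study this Cre recombined only part of the resting fibroblasts. Tissue of 1 male and 1 female mouse was pooled in each library, and lesional and parenchymal nuclei of a library were told apart by tags, which gave 4 matrices. With 1 library per genotype there was no replicate and no test, and every value below compares these libraries, not the genotypes.

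The matrices held 8608 and 3244 barcodes of lesion and parenchyma in the control-labelled library and 8421 and 3216 in the Cxcl12-cKO-labelled library, of which 21743 passed the filters. Median depth was 2962 to 2975 UMIs (unique molecular identifiers, which count transcripts) in the lesion and 15915 to 16648 UMIs in the parenchyma. Matrices of different libraries shared 1 to 22 barcodes, and those of the same library 0. The targeted gene went against the labels, since the level of Cxcl12 in lesional fibroblast-like nuclei was 106 CPM under the control label and 215 CPM under the Cxcl12-cKO label, with a log2 ratio of 1.02 (0.93 to 1.11). The sources used here do not give the deleted part of Cxcl12, so these 3′ counts check nothing about the deletion. RNA of both sexes was found in 9.75% to 14.3% of the nuclei of a matrix, which are doublets or carry free RNA.

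Levels are given in CPM, the UMIs of a gene over all UMIs of the nuclei of a class, scaled to a common total, in the order control-labelled library, then Cxcl12-cKO-labelled library. Parentheses hold 95% intervals, which are exact Poisson for levels, exact binomial for log2 ratios and Clopper-Pearson for shares. They cover counting error only, and since UMIs clump in nuclei the number of nuclei is given beside them. Log2 ratios put the Cxcl12-cKO-labelled library over that labelled control, for genes with at least 50 UMIs in the class. A gene can pass that minimum through the library in which it is high. All 10 genes were detected, from 12 UMIs of Cxcl13 to 10534 UMIs of Cx3cl1, and all but Cxcl13 and Cxcr3 had at least 50 UMIs in a class.

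The ligand genes at least 1.5-fold apart between libraries in lesional fibroblast-like or myeloid-like nuclei, Cxcl1 (ENSMUSG00000029380), Cxcl9 (ENSMUSG00000029417) and Cxcl10 (ENSMUSG00000034855), all lie on chromosome 5. The 250 bases before their starts are shown because interferons and NF-κB are known to induce these genes. Sequences are from RefSeq, GRCm38.p6, another build than that of the counts, and run 5′ to 3′ on the strand of the gene. Capitals mark matches to an interferon-stimulated response element core (GAAA, 2 bases of any kind, GAAA) or a κB site (GGGA, 2 bases of any kind, TTCC). A gamma-activated site (TTC, 3 bases of any kind, GAA) was searched too, all on both strands.
Cxcl1, plus strand, chr5:90890995-90891244: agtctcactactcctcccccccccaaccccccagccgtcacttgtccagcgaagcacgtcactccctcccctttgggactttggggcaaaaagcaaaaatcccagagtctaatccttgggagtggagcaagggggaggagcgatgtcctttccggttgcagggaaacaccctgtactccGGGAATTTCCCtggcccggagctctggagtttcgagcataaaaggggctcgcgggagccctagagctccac
Cxcl9, minus strand, chr5:92328080-92328329: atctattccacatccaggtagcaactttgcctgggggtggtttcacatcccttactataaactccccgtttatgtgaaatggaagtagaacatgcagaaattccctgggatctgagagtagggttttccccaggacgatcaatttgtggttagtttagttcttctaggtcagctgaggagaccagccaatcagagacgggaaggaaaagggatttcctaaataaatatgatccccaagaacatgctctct
Cxcl10, minus strand, chr5:92348890-92349139: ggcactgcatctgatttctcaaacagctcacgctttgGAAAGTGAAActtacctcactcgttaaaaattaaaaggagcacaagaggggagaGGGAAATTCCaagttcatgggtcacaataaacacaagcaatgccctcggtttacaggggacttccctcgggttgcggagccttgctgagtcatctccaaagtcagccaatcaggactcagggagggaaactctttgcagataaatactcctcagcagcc

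Cxcl1 held a pair of overlapping κB matches, GGGAATTTCC at -71 to -62 from its start and GGAATTTCCC at -70 to -61. Cxcl10 held 1 interferon-stimulated core, GAAAGTGAAA, at -213 to -204 and 1 κB match, GGGAAATTCC, at -159 to -150. Cxcl9 held none of these letters in this window, which says nothing about the factors that bind it. Of 32851 promoters of this length, 2.98% held the response element core, 7.02% the gamma-activated site and 1.21% the κB site. Promoters of 9 of the 10 genes were found, all but that of Cxcl16. Beyond these, Cxcl14 held 1 response element core and 1 gamma-activated site. The matches are a description, not evidence of binding.

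Each chemokine gene had its own distribution over the cell classes. Cxcr6 and Cx3cr1 stood apart in T-cell-like and myeloid-like nuclei, Cx3cl1 was highest in neurons, Cxcl14 in parenchymal astrocyte-like nuclei and a subcluster of inhibitory neurons led by Vip, and Cxcl16 in myeloid-like nuclei. Cxcl1, Cxcl9 and Cxcl10 were counted mainly in the lesion, in fibroblast-like, myeloid-like, astrocyte-like and endothelial-like nuclei.

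**Figure D1:**
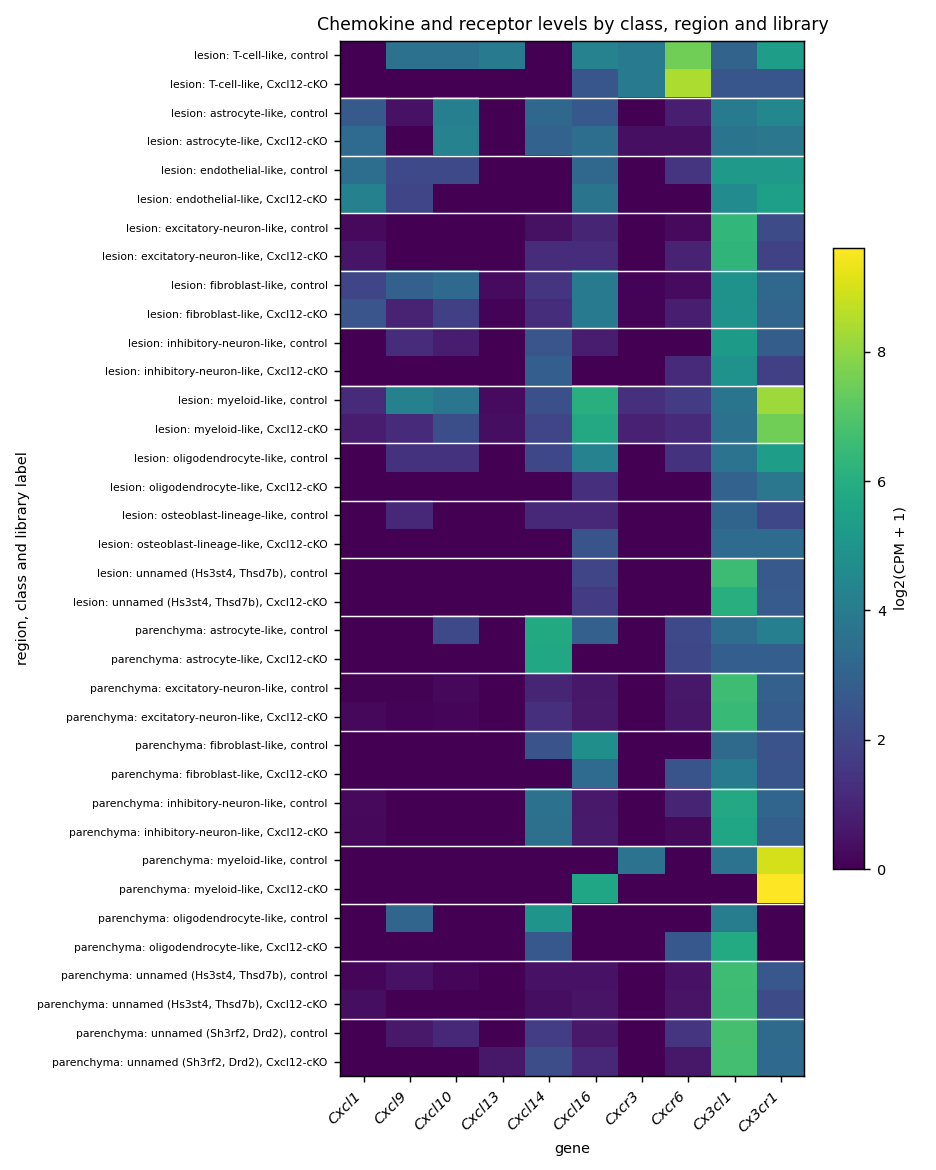
Levels of the 10 chemokine and receptor genes as log2(CPM + 1) (colour) for each class and region with at least 25 nuclei in both libraries (rows, 1 per library label). Cx3cr1 is brightest in myeloid-like rows, Cxcr6 in the T-cell-like rows and Cx3cl1 in the neuron rows, while Cxcl9 and Cxcl10 differ between the library rows of lesional fibroblast-like and myeloid-like nuclei.

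Cxcl9, the interferon-γ-induced ligand of Cxcr3, was lower in the Cxcl12-cKO-labelled library in both of its main classes. In lesional myeloid-like nuclei it stood at 17.8 CPM (14.2 to 22.0) and 1.26 CPM (0.575 to 2.39), from 86 UMIs in 21 of 1802 nuclei and 9 UMIs in 2 of 2333 nuclei. The log2 ratio was -3.75 (-5.0 to -2.83). Fibroblast-like nuclei of the lesion held 6.64 CPM (5.38 to 8.12) and 0.887 CPM (0.472 to 1.52), from 95 UMIs in 25 of 4170 nuclei and 13 UMIs in 8 of 4089 nuclei, a log2 ratio of -2.86 (-3.87 to -2.06). The intervals of the libraries did not overlap in either class. Elsewhere Cxcl9 was sparse, with 3 and 0 UMIs in T-cell-like, 2 and 1 in endothelial-like and 1 and 0 in astrocyte-like nuclei of the lesion.

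The UMIs of Cxcl9 came from few nuclei. In the control-labelled library 1 myeloid-like nucleus held 41 of them, and the 3 highest nuclei held 62.8% of the UMIs of the myeloid-like class and 53.7% of those of the fibroblast-like class. Counted by nuclei rather than UMIs, the log2 ratio of Cxcl9 was -1.56 in fibroblast-like nuclei, and with the 3 highest nuclei of each library left out it was -3.05. In myeloid-like nuclei 32 and 0 UMIs were left without the 3 highest nuclei. So the direction did not rest on the highest nuclei, while the size in fibroblast-like nuclei did depend on UMIs per nucleus. After thinning each nucleus to 1000 UMIs, 0.823% (0.450 to 1.38%) and 0.0904% (0.0110 to 0.326%) of myeloid-like nuclei held a Cxcl9 UMI, against 1.17% and 0.0857% unthinned at medians of 2177 and 2396 UMIs. Of fibroblast-like nuclei 0.345% and 0.0501% did, against 0.600% and 0.196% unthinned at medians of 3059 and 3093 UMIs. Neurons are not a known source of Cxcl9, and lesional excitatory-neuron-like nuclei held no Cxcl9 UMI, thinned or unthinned, in 380 and 161 nuclei, which allows up to 0.789% and 1.86%, at medians of 14653 and 13645 UMIs. Thinning left out 100 and 121 myeloid-like, 110 and 100 fibroblast-like and 0 and 1 excitatory-neuron-like nuclei.

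Nuclei could be assigned to the female or the male mouse of a library by Xist and Y-linked UMIs. Myeloid Cxcl9 lay almost wholly in the female mouse of the control-labelled library, at 38.6 CPM (30.3 to 48.4; 74 UMIs in 15 of 699 nuclei), against 1.90 CPM (3 UMIs in 1 of 548 nuclei) in its male mouse. In the Cxcl12-cKO-labelled library the female mouse held 1.20 CPM (4 UMIs in 1 of 1146 nuclei) and the male mouse 0 UMIs in 544 nuclei, which allows up to 1.66 CPM. The mice of the control-labelled library thus differed from each other about as much as the libraries did. Fibroblast Cxcl9 was at 7.61 CPM (45 UMIs in 18 nuclei) and 8.07 CPM (46 UMIs in 4 nuclei) in the female and male mouse labelled control, and at 0.777 CPM (4 UMIs) and 0.162 CPM (1 UMI) in those labelled Cxcl12-cKO. By UMIs, both mice labelled control were above both mice labelled Cxcl12-cKO in fibroblast-like nuclei. By nuclei with a UMI this did not hold. The share was 1.04% and 0.259% in the female and male mouse labelled control, and 0.278% (4 nuclei) and 0.0629% (1 nucleus) in those labelled Cxcl12-cKO.

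Cxcl10, a ligand of Cxcr3 that interferons and NF-κB induce, was lower in the same classes of the Cxcl12-cKO-labelled library and not in astrocyte-like nuclei. Its level in fibroblast-like nuclei was 8.67 CPM (7.21 to 10.3) and 2.52 CPM (1.78 to 3.48), from 124 UMIs in 51 nuclei and 37 UMIs in 20 nuclei, with a log2 ratio of -1.77 (-2.35 to -1.24). Myeloid-like nuclei held 12.8 CPM (9.83 to 16.4) and 3.91 CPM (2.60 to 5.65), from 62 UMIs in 18 nuclei and 28 UMIs in 8 nuclei, with a log2 ratio of -1.70 (-2.41 to -1.05). Astrocyte-like nuclei held 16.7 CPM (12.2 to 22.3) and 18.3 CPM (13.9 to 23.8), from 45 UMIs in 23 of 618 nuclei and 57 UMIs in 18 of 641 nuclei, with a log2 ratio of 0.13 (-0.45 to 0.73). Taken over both libraries astrocyte-like nuclei ranked highest for Cxcl10, but their intervals overlapped those of myeloid-like nuclei in the control-labelled library.

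Like Cxcl9, Cxcl10 was concentrated, with 26 of the 62 myeloid UMIs in 1 nucleus labelled control and 19 of the 28 in 1 nucleus labelled Cxcl12-cKO. In the fibroblast-like class 8 nuclei labelled control held both Cxcl9 and Cxcl10 UMIs, which is 32.0% of the nuclei with Cxcl9 and 15.7% of those with Cxcl10, whereas 1.22% of all fibroblast-like nuclei in that library held Cxcl10. Thinned shares with Cxcl10 were 0.542% and 0.175% of fibroblast-like, 0.646% and 0.226% of myeloid-like and 2.45% and 1.26% of astrocyte-like nuclei, the last at medians of 3689 and 4071 UMIs with 5 and 6 nuclei left out. Unthinned they were 1.22% and 0.489%, 0.999% and 0.343%, and 3.72% and 2.81%. Excitatory-neuron-like nuclei of the lesion held 0, thinned and unthinned.

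Cxcl10 was split by mouse as well. Fibroblast Cxcl10 was higher in each mouse labelled control than in the mouse of the same sex labelled Cxcl12-cKO. In the female mice it was 14.0 CPM (34 of 1727 nuclei) and 4.27 CPM (2.68 to 6.47; 9 of 1438 nuclei). In the male mice it was 5.44 CPM (3.70 to 7.72; 10 of 1546 nuclei) and 1.46 CPM (7 of 1589 nuclei). The male mouse labelled control and the female Cxcl12-cKO-labelled mouse had overlapping intervals. By nuclei with a UMI the shares were 1.97% and 0.626% (female) and 0.647% and 0.441% (male). Myeloid Cxcl10 was found in the female mice, at 27.1 CPM (20.3 to 35.6) and 7.81 CPM (5.10 to 11.5), while the male mice held 3 and 0 UMIs. The astrocyte pattern was crossed. The female mouse labelled control held 24.6 CPM (29 UMIs in 17 of 282 nuclei), whereas in its Cxcl12-cKO-labelled counterpart 274 nuclei held 0 UMIs, at least 10.6-fold lower against a floor of 3 UMIs. In the male mice it was 2.60 CPM (2 UMIs in 1 of 178 nuclei) and 35.0 CPM (32 UMIs in 10 of 179 nuclei). The difference between the sexes was not tested, and mouse and sex cannot be told apart here.

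**Figure D2:**
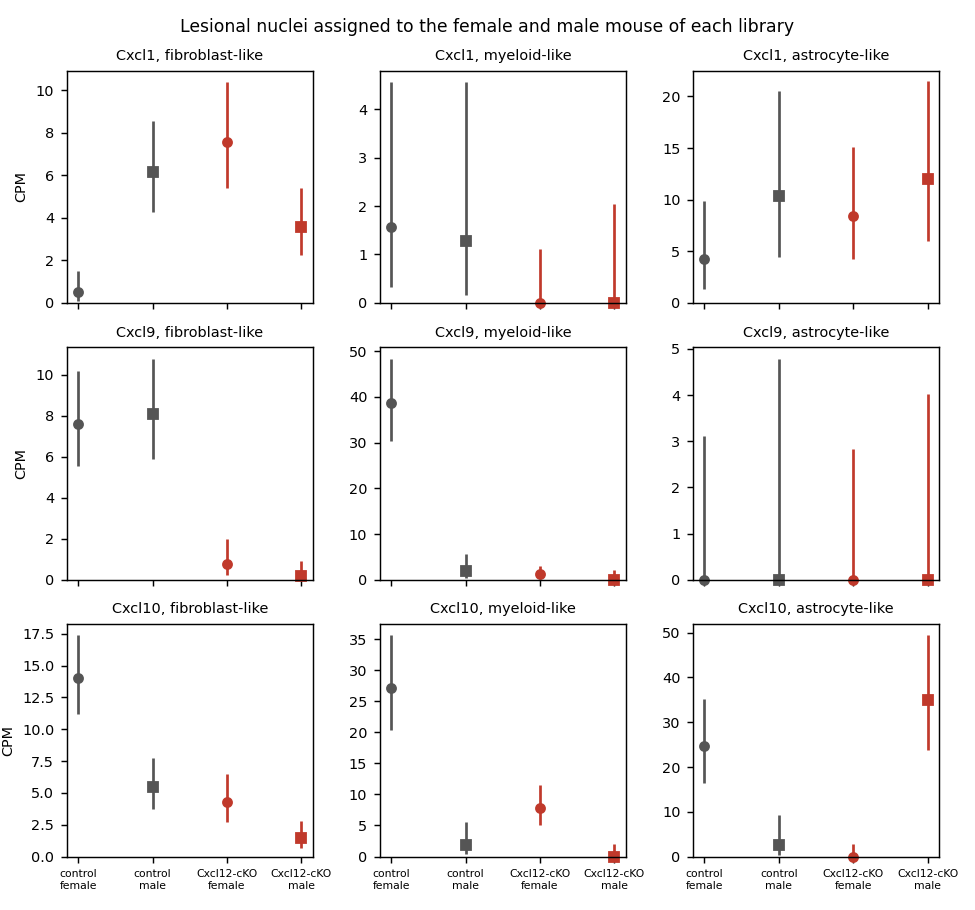
Levels in CPM (vertical axis, with 95% Poisson intervals) of Cxcl1, Cxcl9 and Cxcl10 (rows) in lesional fibroblast-like, myeloid-like and astrocyte-like nuclei (columns) of the female (circles) and male (squares) mouse of each library. Myeloid Cxcl9 reaches 38.6 CPM in the female mouse labelled control alone, astrocyte Cxcl10 is at 24.6 and 35.0 CPM in 1 mouse of each library and at 2.60 CPM or 0 in the others, and fibroblast Cxcl1 is at 0.507 CPM in the female mouse labelled control.

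Cxcl1, the neutrophil-attracting ligand of Cxcr2, was counted in lesional stroma and glia. It ranked highest in endothelial-like nuclei, at 10.2 CPM (3.73 to 22.1; 6 UMIs) and 17.8 CPM (6.54 to 38.8; 6 UMIs), then in astrocyte-like nuclei, at 5.56 CPM (15 UMIs) and 9.33 CPM (29 UMIs). Fibroblast-like nuclei followed at 3.01 CPM (2.18 to 4.05) and 4.85 CPM (3.78 to 6.11), from 43 UMIs in 20 nuclei and 71 UMIs in 44 nuclei. Neighbours in this order overlapped within counting error. T-cell-like, oligodendrocyte-like and osteoblast-lineage-like nuclei held 0 UMIs, and myeloid-like nuclei 6 and 5.

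The fibroblast log2 ratio of Cxcl1 was 0.68 (0.12 to 1.27), but its direction differed between the mice. In the female mice the level was 0.507 CPM (3 UMIs in 1727 nuclei) and 7.58 CPM (39 UMIs in 1438 nuclei), a log2 ratio of 3.70 (2.25 to 6.24). In the male mice it was 6.14 CPM (35 UMIs) and 3.56 CPM (22 UMIs), a log2 ratio of -0.78 (-1.63 to 0.02). The female mouse labelled control was thus the low one, and the other mice lay at 3.56 to 7.58 CPM. After thinning, 0.197% and 0.226% of fibroblast-like nuclei held a Cxcl1 UMI, against 0.480% and 1.08% unthinned, and lesional excitatory-neuron-like nuclei 0.263% (0.00666 to 1.46%; 1 nucleus) and 0. The thinned shares thus did not set fibroblast-like nuclei apart from neurons. The CPM did, since the excitatory-neuron-like nuclei held 0.169 and 0.440 CPM, from 1 UMI in each library. Of the fibroblast-like nuclei 10 and 17 held at least 2 UMIs.

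Across all genes tested in lesional fibroblast-like nuclei (14330 with at least 50 UMIs), 2.57% were at least 1.5-fold lower in the Cxcl12-cKO-labelled library and 3.19% at least 1.5-fold higher. Of the 6 chemokine genes with enough UMIs there, Cxcl9 and Cxcl10 were past that fold on the lower side and Cxcl1 on the higher, and the median log2 ratio was -0.08, beside 0.00 over all genes. In lesional myeloid-like nuclei (12433 genes) 3.27% were past the fold on the lower side and 3.15% on the higher. There 3 of 5 chemokine genes were lower, Cxcl9, Cxcl10 and Cx3cr1, and none was higher, with a median of -0.68 beside -0.01 over all genes. In astrocyte-like nuclei 7.58% of 10364 genes were past the fold in either direction, and 1 of 3 chemokine genes, Cx3cr1. In the neuron classes of the parenchyma no chemokine gene was past it, of 3 in excitatory-neuron-like, 3 in inhibitory-neuron-like and 2 in an unnamed neuron cluster led by Hs3st4 and Thsd7b, where 3.45%, 4.24% and 3.84% of all genes were.

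**Figure D3:**
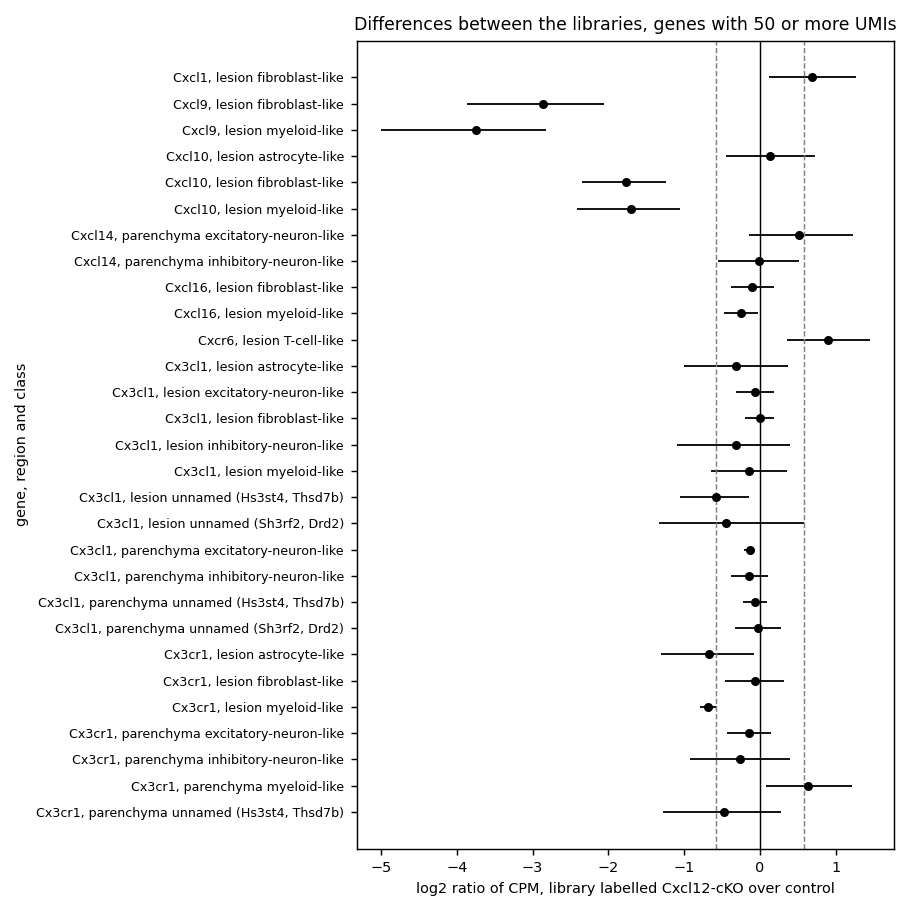
Log2 ratio of CPM, library labelled Cxcl12-cKO over control (horizontal axis, with 95% counting intervals), for each chemokine or receptor gene with at least 50 UMIs in a class and region (rows), with dashed lines at 1.5-fold either way. Cxcl9 and Cxcl10 lie between -3.75 and -1.70 in fibroblast-like and myeloid-like nuclei, Cxcr6 lies at 0.89 in T-cell-like nuclei, and most ratios of Cx3cl1 and Cxcl16 lie near 0.

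Lesional fibroblast-like nuclei fell into 4 subclusters, a late inner-like one (subcluster 0, led by Erg and Lama3), an unnamed one (subcluster 1, led by Prmt8 and Ccn3) and a pair of leptomeningeal-like ones (subcluster 2, led by Sptssb and Trpm3, and subcluster 3, led by Dcdc2a and Col4a6). They held 23.1% and 31.6%, 26.8% and 21.0%, 41.2% and 35.5%, and 8.99% and 11.9% of the class. In the control-labelled library the late inner-like state held 7 of the 95 fibroblast UMIs of Cxcl9 and 3 of the 124 of Cxcl10, whereas in the Cxcl12-cKO-labelled library it held 18 of the 37 Cxcl10 UMIs. Cxcl9 was at 11.7 CPM (9.0 to 15.1) and 1.94 CPM (0.889 to 3.69) in subcluster 2. The higher 19.0 CPM of subcluster 3 in the control-labelled library came from 22 UMIs in 2 nuclei, against 0 in the Cxcl12-cKO-labelled library. In subclusters 0 and 1 Cxcl9 was at most 2.19 CPM. This order depended on the clustering. With all nuclei clustered at resolution 0.5, the fibroblast cluster led by Eln and Erg held most of the Cxcl9 UMIs labelled control, 64 in 9 nuclei or 17.9 CPM (13.8 to 22.9), and the other fibroblast clusters held 18, 11 and 3 UMIs.

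Cxcl10 levels in the control-labelled library were 0.939, 8.15, 11.6 and 19.0 CPM in subclusters 0 to 3, and in the Cxcl12-cKO-labelled library 3.54, 1.76, 2.81 and 0 CPM. Its difference between libraries was therefore opposite in the late inner-like state (3 UMIs and 18 UMIs, log2 ratio 1.73, 0.14 to 4.32) to that in subclusters 1 (-2.12, -3.75 to -0.96) and 2 (-2.00, -3.03 to -1.16). Of the 18 UMIs, 15 came from 4 nuclei of the female mouse. In subcluster 1, 37 of 38 UMIs labelled control came from the female mouse, and the male mouse of that library held 0 in 381 nuclei. At resolution 0.5 the opposite direction was not seen, since the cluster led by Eln and Erg held 7.55 CPM (27 UMIs) and 1.40 CPM (8 UMIs) of Cxcl10, lower in the Cxcl12-cKO-labelled library.

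Cxcl1 was highest in subcluster 3, at 16.4 CPM (9.86 to 25.6) and 20.3 CPM (13.8 to 28.8), and the intervals there lay above those of the other subclusters in both libraries. At resolution 0.5 this order held in the Cxcl12-cKO-labelled library, with overlapping intervals, and not in the control-labelled library. The cluster led by Lama1, with Dcdc2a and Col4a6 among its genes, held 2.41 CPM (0.292 to 8.72; 2 UMIs) and 13.6 CPM (7.04 to 23.8; 12 UMIs) of Cxcl1, and that led by Eln and Erg 6.72 CPM (4.30 to 9.99; 24 UMIs) and 6.47 CPM (4.56 to 8.92; 37 UMIs). Within subcluster 3 the female mouse labelled control held 0 UMIs in 118 nuclei, and the male 29.0 CPM (16.9 to 46.4). The mice labelled Cxcl12-cKO held 27.8 CPM (17.0 to 43.0) in the female and 9.11 CPM (2.48 to 23.3) in the male. Subcluster 3 also made up 6.83% of the fibroblast-like nuclei of the female mouse labelled control and 15.6% of those of the female Cxcl12-cKO-labelled mouse. The part of this share in the Cxcl1 difference was not tested.

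**Figure D4:**
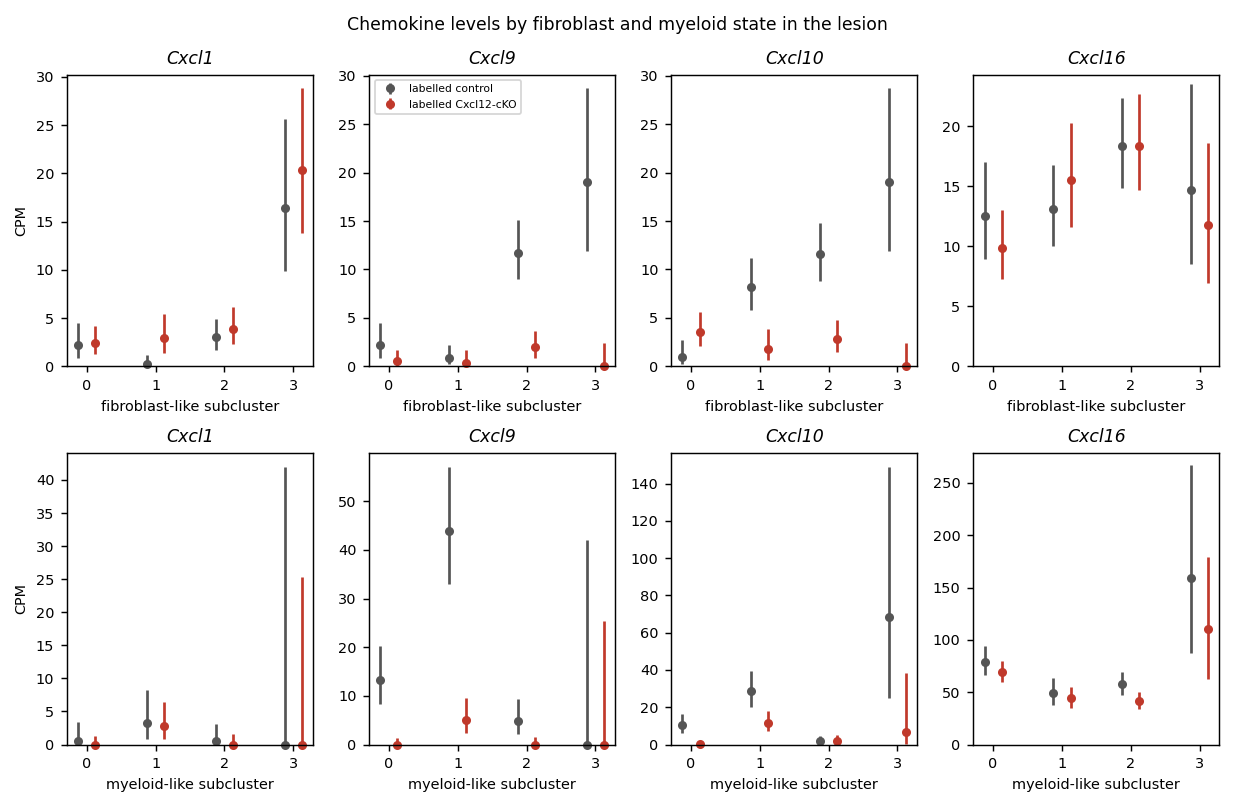
Levels in CPM (vertical axes, with 95% Poisson intervals) of Cxcl1, Cxcl9, Cxcl10 and Cxcl16 in the subclusters (horizontal axes, numbered) of lesional fibroblast-like (top) and myeloid-like (bottom) nuclei in the control-labelled library (grey) and labelled Cxcl12-cKO (red). In these subclusters Cxcl1 is highest in fibroblast subcluster 3, at 16.4 and 20.3 CPM, and Cxcl9 in myeloid subcluster 1 of the control-labelled library, at 43.8 CPM, neither of which held in that library at resolution 0.5, and Cxcl16 is spread over all states.

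Lesional myeloid-like nuclei fell into a border-associated macrophage-like state (subcluster 0), an unnamed one led by Eya2, Trabd2b and Bmp6 (subcluster 1), a homeostatic microglia-like one (subcluster 2) and a small monocyte or dendritic cell-like one (subcluster 3). Subcluster 0 was led by Adra1a, F13a1 and Mamdc2, and its name rests on a marker list. At resolution 0.5 the myeloid-like cluster led by F13a1 and Mrc1 also had Gpnmb, Lgals3 and Fabp4 among its leading genes. Gpnmb is part of the study's score of scar-associated macrophages. How far subcluster 0 holds such macrophages was not tested. Subcluster 1 carried fibroblast genes, and 27.2% of its nuclei held RNA of both sexes. Cxcl9 was highest in that subcluster, at 43.8 CPM (33.0 to 57.1; 55 UMIs in 7 nuclei) and 5.0 CPM (2.29 to 9.49; 9 UMIs in 2 nuclei). The border-associated macrophage-like state held 13.3 CPM (22 UMIs in 8 nuclei) and 0 UMIs, and the homeostatic microglia-like state 4.89 CPM (9 UMIs in 6 nuclei) and 0. The placement of Cxcl9 depended on the clustering here too. At resolution 0.5 the myeloid-like cluster led by Cd74 and H2-Eb1, genes of antigen presentation, held 150 CPM (110 to 199; 47 UMIs in 3 nuclei) and 19.5 CPM (8.91 to 37.0; 9 UMIs in 2 nuclei), whereas the one in which fibroblast markers scored second held 12.5 CPM (10 UMIs in 4 nuclei) and 0. Without subcluster 1 the class held 31 UMIs and 0 UMIs of Cxcl9, 8.66 and 0 CPM.

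Cxcl10 was likewise lower in the border-associated macrophage-like state, at 10.3 CPM (17 UMIs in 6 nuclei) and 0.356 CPM (1 UMI), and in subcluster 1, at 28.7 and 11.7 CPM. In homeostatic microglia-like nuclei it was sparse in both libraries, with 3 UMIs and 5 UMIs. Of the 42 and 67 monocyte or dendritic cell-like nuclei, 1 in each library held Cxcl10, with 6 UMIs and 1 UMI.

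The genes that induce these chemokines were taken from a list of 16 interferon and NF-κB genes. In fibroblast-like nuclei 13 had enough UMIs and none was past 1.5-fold either way, with a median log2 ratio of -0.01. Of all genes there, 2.57% were past the fold on the lower side and 3.19% on the higher. In myeloid-like nuclei 15 were measured and 1 was past the fold, Il1b, at 20.7 and 8.80 CPM (-1.23, -1.71 to -0.76). Of all genes there, 3.27% were past the fold on the lower side and 3.15% on the higher. Irf1, an interferon-induced factor that binds response elements, was at 59.0 and 39.5 CPM (-0.58, -0.82 to -0.33). The median over the list was -0.23, beside -0.01 over all genes. In astrocyte-like nuclei 1 of 13 was past the fold, on the lower side, while 7.58% of all genes were past it in either direction. Summed per mouse, these genes reached 1270 and 1260 CPM in the fibroblast-like nuclei of the female mice and at 1050 and 1060 CPM in those of the male mice, and in myeloid-like nuclei at 2490 and 2050 CPM (female) and 2000 and 1840 CPM (male).

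Other genes of the family were sparser. Of a list of 17 further CXC, CX3C and XC genes, 3 had enough UMIs in fibroblast-like nuclei and 4 in myeloid-like nuclei. Cxcl12 was the higher one in both, and Cxcl2, a neutrophil-attracting paralog of Cxcl1, was lower in myeloid-like nuclei, at 9.10 CPM (44 UMIs) and 1.96 CPM (14 UMIs), a log2 ratio of -2.18 (-3.20 to -1.32). Of all genes, 3.19% were past the fold on the higher side in fibroblast-like nuclei. In myeloid-like nuclei 3.15% were past it on the higher side and 3.27% on the lower. In astrocyte-like nuclei 2 of 3 were higher, Cxcl12 and Cxcl5, the latter at 6.67 and 13.8 CPM (1.03, 0.23 to 1.93), while 7.58% of all genes were past the fold in either direction. Cxcl11, the remaining ligand of Cxcr3, was below the minimum and is named after its values were seen, with 22 UMIs and 2 UMIs in fibroblast-like nuclei and 1 UMI in each library in myeloid-like nuclei. The number of nuclei and the split by mouse are not given for Cxcl2, Cxcl5 and Cxcl11, so their UMIs may lie in few nuclei. The proteases Adam10 and Adam17, which release Cxcl16 and Cx3cl1 from the membrane, and Dpp4, which trims Cxcl9 and Cxcl10, were not past the fold in either class. The lowest of their log2 ratios was that of Dpp4 in fibroblast-like nuclei, -0.33 (-0.49 to -0.19), at 57.1 and 45.2 CPM.

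Cxcl16 (ENSMUSG00000018920), the membrane-bound ligand of Cxcr6, was broadly counted and differed little between libraries. Lesional myeloid-like nuclei ranked highest, at 64.8 CPM (57.8 to 72.3; 313 UMIs) and 54.4 CPM (49.1 to 60.0; 389 UMIs), a log2 ratio of -0.25 (-0.47 to -0.03). Fibroblast-like nuclei held 15.0 CPM (215 UMIs) and 14.1 CPM (206 UMIs), a log2 ratio of -0.10 (-0.38 to 0.19), which did not differ beyond counting error. By myeloid state the level ran from 159 and 110 CPM in monocyte or dendritic cell-like nuclei (14 UMIs and 16 UMIs) and 79.3 and 69.0 CPM in border-associated macrophage-like nuclei to 57.6 and 41.2 CPM in homeostatic microglia-like nuclei. The last pair was the only one of the 4 states whose log2 ratio excluded 0 (-0.48, -0.89 to -0.07). Astrocyte-like nuclei of the lesion held 5.19 CPM (2.84 to 8.70; 14 UMIs) and 9.97 CPM (6.78 to 14.2; 31 UMIs). Fibroblast states spanned 9.84 to 18.4 CPM over both libraries.

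Fibroblast-like nuclei held 27.0 and 21.8 Cxcl16 UMIs per 100 UMIs of the 10 myeloid markers, against 2.10 and 2.25 in myeloid-like nuclei. Classes were named by such markers, which bears on this ratio, and the part of myeloid RNA in the fibroblast UMIs was not tested. Thinned, 1.45% and 1.35% of fibroblast-like and 6.35% and 5.79% of myeloid-like nuclei held a Cxcl16 UMI, and 0 of 380 and 160 lesional excitatory-neuron-like nuclei did. Unthinned the shares were 4.82% and 4.62%, 13.8% and 13%, and 1.58% and 1.24%.

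Cxcl14 (ENSMUSG00000021508) marked parenchymal astrocyte-like nuclei and a subset of interneurons. Parenchymal astrocyte-like nuclei held 56.2 CPM (17 UMIs in 58 nuclei) and 51.2 CPM (16 UMIs in 60 nuclei), against 8.52 CPM (5.40 to 12.8; 23 UMIs in 618 nuclei) and 7.08 CPM (4.44 to 10.7; 22 UMIs in 641 nuclei) in the lesion. The log2 ratio of lesion over parenchyma was -2.73 (-3.69 to -1.73) in the control-labelled library and -2.87 (-3.85 to -1.83) in the Cxcl12-cKO-labelled library. The level was lower in the lesion in all 4 mice. It was 13.5 and 9.99 CPM in the lesion and 36.8 and 44.9 CPM in the parenchyma of the female mice, and 2.60 and 2.19 CPM and 89.0 and 81.2 CPM in those of the male mice. These rest on 2 to 16 UMIs each.

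The astrocyte-like class changed with region in other ways. Its 7 astrocyte markers summed to 4490 and 5350 CPM in the lesion and 8240 and 9620 CPM in the parenchyma, none at 0, and oligodendrocyte precursor markers scored second in its cluster. The part of these in the Cxcl14 difference was not tested. With clusters at resolution 0.5 the astrocyte-like cluster held 9.58 and 8.40 CPM in the lesion and 76.7 and 66.8 CPM in the parenchyma. Comparisons between regions used classes with at least 25 nuclei in each matrix, a minimum lowered after the data were seen, since no class reached the 200 first set.

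Among neurons pooled over both regions, Cxcl14 lay in the subclusters named Adarb2 (Vip, Lamp5, Sncg)-like. The subcluster led by Vip and Frem1 held 54.3 CPM (39.9 to 72.2; 47 UMIs in 26 of 80 nuclei) and 59.5 CPM (44.6 to 77.9; 53 UMIs in 28 of 68 nuclei). The subcluster led by Lamp5 and Pde11a held 7.72 and 14.2 CPM, from 5 UMIs and 9 UMIs. The Pvalb subcluster held 0 UMIs in 125 and 126 nuclei, which allows up to 1.5 and 1.49 CPM, and the Sst subcluster 0 and 1 UMI. A group of 9 and 6 nuclei led by Prima1, Slc5a7 and Chat, the last the gene of acetylcholine synthesis, held 33.6 and 46.5 CPM from 8 UMIs and 6 UMIs. Excitatory subclusters were at 2.33 CPM or less but for the one led by Cdc14a and Fam163a, at 9.33 and 11.7 CPM, and the one led by 9330185C12Rik and Fermt1, at 9.73 and 6.94 CPM. Between libraries Cxcl14 did not differ beyond counting error in parenchymal inhibitory-neuron-like nuclei (10.9 and 10.8 CPM, log2 ratio -0.02, -0.55 to 0.52) or excitatory-neuron-like nuclei (1.01 and 1.46 CPM, 0.52, -0.15 to 1.22).

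**Figure D5:**
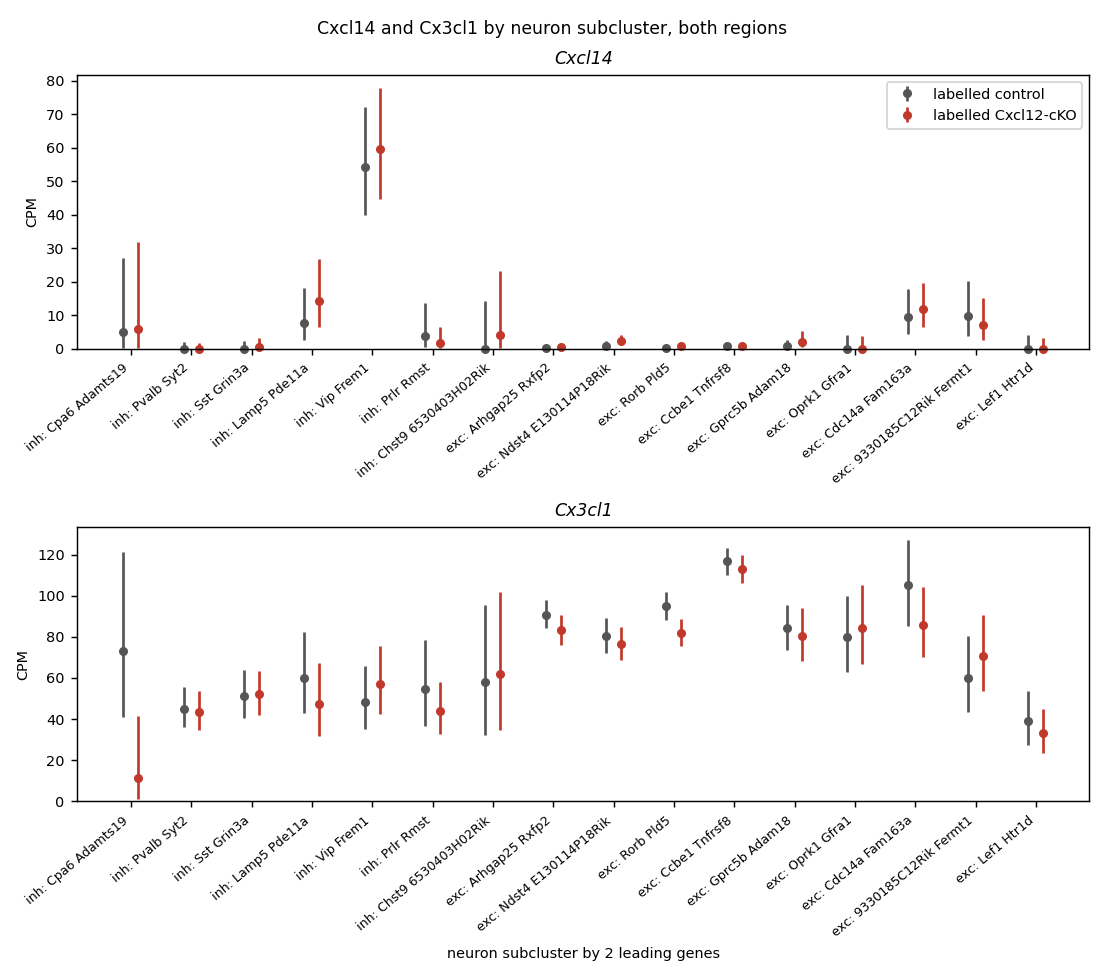
Levels in CPM (vertical axes, with 95% Poisson intervals) of Cxcl14 (top) and Cx3cl1 (bottom) in neuron subclusters of both regions together with at least 25 nuclei in each library, named by 2 leading genes (inh, inhibitory; exc, excitatory), in the control-labelled library (grey) and labelled Cxcl12-cKO (red). Cxcl14 stands at 54.3 and 59.5 CPM in the Vip subcluster and near 0 in most others, and Cx3cl1 is present in all, highest at 117 and 113 CPM in the upper layer-like subcluster.

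Cx3cl1 (ENSMUSG00000031778), the neuronal ligand of Cx3cr1, was counted with 10534 UMIs in 5154 of 21743 nuclei. Parenchymal excitatory-neuron-like nuclei held 97.5 CPM (3172 UMIs) and 89.0 CPM (2860 UMIs), a log2 ratio of -0.13 (-0.21 to -0.06), and both the female mice (-0.16) and the male mice (-0.14) showed it. Parenchymal inhibitory-neuron-like nuclei held less, 54.0 and 49.1 CPM, and their intervals did not overlap those of the excitatory-neuron-like nuclei. By subcluster the level was highest in upper layer-like nuclei, at 117 CPM (110 to 123) and 113 CPM (106 to 120). It was 94.9 and 81.8 CPM in middle layer-like nuclei and 84.1 and 80.5 CPM in deep layer-like nuclei. The lowest excitatory subcluster, led by Lef1 and Htr1d, held 38.9 CPM (27.3 to 53.9) and 33.0 CPM (23.6 to 44.9). The subclusters led by Pvalb, Sst, Vip and Lamp5 lay between 43.6 and 60.2 CPM with overlapping intervals.

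Neurons of the lesion tended to hold less Cx3cl1 than those of the parenchyma, beyond counting error in 4 of 6 comparisons. The share of all genes beyond counting error between regions is not given, so this count does not set Cx3cl1 apart from other genes. The log2 ratio of lesion over parenchyma was -0.56 (-1.01 to -0.14) and -0.73 (-1.44 to -0.15) in inhibitory-neuron-like nuclei. For excitatory-neuron-like nuclei it was -0.27 (-0.42 to -0.13) and -0.20 (-0.43 to 0.02), and for the unnamed cluster led by Hs3st4 and Thsd7b -0.05 (-0.31 to 0.19) and -0.56 (-1.0 to -0.18). Between libraries the lesional excitatory-neuron-like nuclei held 80.7 and 77.4 CPM (-0.06, -0.32 to 0.19), and that unnamed cluster 95.1 and 63.3 CPM (-0.58, -1.06 to -0.14). How the subtypes of neuron were divided between the regions is part of these ratios, and its part was not tested.

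Fibroblast-like nuclei of the lesion also held Cx3cl1, at 29.7 CPM (26.9 to 32.6) and 29.6 CPM (26.9 to 32.5), a log2 ratio of 0.00 (-0.20 to 0.19). Their states were alike, at 26.1 to 33.9 CPM. Per 100 UMIs of excitatory neuron markers they held 37.1 and 35.4 Cx3cl1 UMIs, against 5.24 and 4.97 in excitatory-neuron-like nuclei and 11.3 in myeloid-like nuclei of each library. Classes were named by such markers, which bears on these ratios, and the part of neuronal RNA in the fibroblast UMIs was not tested. Thinned shares were 3.08% and 2.96% of fibroblast-like, 1.18% and 1.22% of myeloid-like and 10.8% and 10.0% of lesional excitatory-neuron-like nuclei, and unthinned 9.14% and 9.20%, 3.22% and 3.09%, and 61.8% and 58.4%. Endothelial-like nuclei, another known source of Cx3cl1, held 35.6 CPM (21 UMIs) and 23.8 CPM (8 UMIs).

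Of the receptors, Cx3cr1 (ENSMUSG00000052336) was the best measured. Lesional myeloid-like nuclei held 293 CPM (278 to 309; 1417 UMIs) and 183 CPM (174 to 194; 1312 UMIs), a log2 ratio of -0.68 (-0.79 to -0.57). The levels were lower in the mouse labelled Cxcl12-cKO of each sex, at 340 and 207 CPM in the female mice and 225 and 149 CPM in the male mice. All 3 larger states were lower, from 157 to 95.7 CPM in border-associated macrophage-like nuclei, from 193 to 129 CPM in subcluster 1 and from 496 to 336 CPM in homeostatic microglia-like nuclei, where the log2 ratio was -0.56 (-0.70 to -0.42). In the male mice the ratio of the border-associated macrophage-like state, -0.23 (-0.73 to 0.29), included 0. A Cx3cr1 UMI was found in 38.0% and 29.2% of myeloid-like nuclei, and in 22.5% (20.5 to 24.6%) and 16.3% (14.8 to 17.9%) after thinning. By nuclei with a UMI the log2 ratio was -0.38, smaller than by UMIs. The 10 myeloid markers of the class also fell, from 3090 to 2420 CPM, as did the 8 fibroblast markers in it, from 1190 to 864 CPM, none of either list at 0. Their part in the Cx3cr1 difference was not tested.

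In the parenchyma the myeloid-like nuclei were few, 32 and 46, and held 502 CPM (43 UMIs) and 779 CPM (77 UMIs) of Cx3cr1. The log2 ratio of lesion over parenchyma was -0.79 (-1.21 to -0.30) in the control-labelled library and -2.10 (-2.42 to -1.74) in the Cxcl12-cKO-labelled library. Lesional homeostatic microglia-like nuclei held 496 and 336 CPM, but the parenchymal levels are those of a whole class, not of that state. At resolution 0.5 the myeloid-like cluster led by Csf3r and Siglech held 520 CPM (486 to 555) and 360 CPM (336 to 386) in the lesion. In the parenchyma it held 1050 CPM (761 to 1420; 25 nuclei) and 1040 CPM (814 to 1310; 37 nuclei). Myeloid markers summed to 6330 and 6740 CPM in parenchymal myeloid-like nuclei. The parenchymal class level was higher in the Cxcl12-cKO-labelled library (log2 ratio 0.63, 0.08 to 1.21). By mouse this was seen in the male mice only, with 2 UMIs in 6 nuclei and 17 UMIs in 9 nuclei. The cluster led by Csf3r and Siglech showed no such difference. The part of the make-up of the class in it was not tested. The female mice held 866 and 818 CPM (-0.10, -0.84 to 0.72).

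Outside the myeloid class Cx3cr1 was low. Fibroblast-like nuclei held 8.25 and 7.85 CPM, or 14.8 and 12.1 UMIs per 100 myeloid marker UMIs against 9.49 and 7.58 in myeloid-like nuclei. Classes were named by such markers, which bears on these ratios. The thinned share of fibroblast-like nuclei was 0.887% (0.622 to 1.23%) and 0.877% (0.612 to 1.22%). That of lesional excitatory-neuron-like nuclei was 1.05% (0.288 to 2.67%; 4 of 380 nuclei) and 0 of 160 nuclei (up to 2.28%). These intervals overlapped, so the shares did not set fibroblast-like nuclei apart from neurons. In astrocyte-like nuclei the lower level of the Cxcl12-cKO-labelled library (21.1 and 13.2 CPM, log2 ratio -0.67, -1.30 to -0.08) did not hold by nuclei, since 28 and 33 nuclei held the gene, a log2 ratio of 0.18.

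Cxcr6 (ENSMUSG00000048521), a receptor of tissue-resident T cells, stood apart in the T-cell-like class of the lesion, which held 51 and 69 of its 219 UMIs. That class held 132 and 108 nuclei, and its T-cell markers summed to 4160 and 4070 CPM, with none of the 12 at 0. Cxcr6 was at 184 CPM (137 to 243; 51 UMIs in 30 nuclei) and 343 CPM (267 to 434; 69 UMIs in 35 nuclei), a log2 ratio of 0.89 (0.35 to 1.45). The next class in order, parenchymal astrocyte-like nuclei, held 1 UMI in each library, and the intervals did not overlap. Both female mice and both male mice differed in the same direction, at 160 and 366 CPM (20 UMIs and 33 UMIs) in the female and 94.6 and 345 CPM (5 UMIs and 12 UMIs) in the male. Per nucleus the difference was smaller, since 22.7% and 32.4% held a UMI, and 16.0% (9.63 to 24.4%) and 26.4% (17.7 to 36.7%) did after thinning, with overlapping intervals. Thinned background in fibroblast-like nuclei was 0.0246% and 0.0752%. The fibroblast markers of the T-cell-like class summed to 2050 and 835 CPM, and the part of this other RNA in the ratio was not tested. The share of all genes past 1.5-fold in T-cell-like nuclei is not given, so the ratio does not set Cxcr6 apart from other genes.

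Cxcr3 (ENSMUSG00000050232), the receptor of Cxcl9 and Cxcl10, was counted with 24 UMIs in 21 nuclei in all. T-cell-like nuclei held 14.5 CPM (3.94 to 37.0; 4 UMIs) and 14.9 CPM (3.08 to 43.6; 3 UMIs), and myeloid-like nuclei 7 UMIs and 6 UMIs. No difference between libraries was detectable at this depth. Cxcl13 (ENSMUSG00000023078), the B cell chemokine, was counted with 12 UMIs in 10 nuclei, of which 4 UMIs in 2 nuclei lay in the T-cell-like class labelled control (14.5 CPM, 3.94 to 37.0) and none in that labelled Cxcl12-cKO, which allows up to 14.9 CPM.

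Away from the lesion the inducible ligands were near the floor. The 51 and 50 parenchymal fibroblast-like nuclei held 0 UMIs of Cxcl1, Cxcl9 and Cxcl10, as did the 32 and 46 parenchymal myeloid-like nuclei of Cxcl9 and Cxcl10, and the parenchymal astrocyte-like nuclei held 1 UMI and 0 UMIs of Cxcl10. For astrocyte-like nuclei labelled control the log2 ratio of lesion over parenchyma was 1.77 (-0.22 to 7.67), within counting error, and in the Cxcl12-cKO-labelled library 18.3 CPM stood against 0 UMIs, which allows up to 9.60 CPM. With so few nuclei a lower level in the parenchyma was not detectable in fibroblast-like or myeloid-like nuclei for any of the 3 genes. Cxcl16 was counted with 0 UMIs and 5 UMIs in parenchymal myeloid-like nuclei.

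By their pattern over 33 profiles of 17 classes in a region, other genes came close to 7 of the 10. The genes most like Cx3cr1 were Tlr13 (Pearson r = 0.911), Slc11a1 (0.907) and C5ar1 (0.897), those most like Cxcr6 were Cd247 (0.928), BE692007 (0.910) and Gm2682 (0.898), and those most like Cx3cl1 included Gm44643 (0.933) and Gm42456 (0.907). For Cxcl16 they were Arhgap17 (0.895), Mlph and Larp4b (both 0.869), for Cxcl14 Fam163a (0.842), Pax6 (0.828) and Dnah11 (0.818), for Cxcl10 Icosl (0.833), Igha (0.803) and Nuak2 (0.781), and for Cxcl9 Myd88 (0.769), Gm10134 (0.767) and Ccl8 (0.762). These correlations are descriptions over profiles that share libraries and depth.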

How the data were processed

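Single-nucleus RNA from 2 genotypes was captured with 10x Genomics 3′ chemistry, 1 library per genotype, and lesional and parenchymal nuclei were separated by tags. The authors ran Cell Ranger 9.0.0 on GRCm39, per the submitters' processing notes, and deposited 4 filtered matrices of raw UMI counts per gene and nucleus, without normalization. The sources used here do not say whether intronic reads were counted. The tag libraries were not used, and 0 columns of per-sample values were left unused. The 10 genes and all lists were chosen with earlier results of these data known.

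From these counts, barcodes outside the 2.5 percentiles were removed, so that kept nuclei had 584 to 6419 genes, between 757 and 36244 UMIs, and 8.75% of mitochondrial UMIs or less. Counts were scaled to 10000 and logged, and 3000 variable genes (2000 for subclusters), 30 components, 20 neighbours and Leiden clustering at resolution 0.25 were used in scanpy 1.11.5 (with igraph 0.11.9, scikit-learn 1.9.0, scipy 1.17.1, numpy 2.4.6, pandas 2.3.3 and matplotlib 3.10.9 under Python 3.11.15). The 10 genes, the inducer and family lists, interferon-induced genes and sex-linked genes were left out of clustering. A cluster was named X-like for the marker list with the highest mean log2 fold, if that fold reached 0.5 and 3 markers were up in at least 10% of its nuclei. These thresholds were set after clusters had been seen.

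Doublets were not called for the main values. As an alternative, the 10% of nuclei with the highest Scrublet score per library were left out (1097 and 1077). A nucleus with Xist and no Y-linked UMI was taken as from the female mouse, and one with Y-linked UMIs and no Xist as from the male mouse. UMIs were summed per class, region and library, and 0.5 was added to each sum in log2 ratios, with 95% intervals exact for counting error and no test. A count of 0 is set against a floor of 3 counts. Genes counted as past the fold differed by at least 1.5-fold with at least 50 UMIs in the class. All 10 genes are named, genes of the lists only with at least 50 UMIs in the class unless stated, and for each gene with at least 200 UMIs the 3 genes with the most similar log2(CPM + 1) over profiles of at least 50 nuclei. Some genes that these rules select are not reported here. The scripts were tested on simulated data. In all, 13 alternatives were planned and 4 were added after the data had been seen.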

Additional observations from a re-analysis of the deposited data

Results flagged for a closer look

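In 3 cases the log2 ratios between the libraries had opposite signs for the mice of each sex, with counting intervals that did not overlap. Where the signs were opposite for other genes and classes, the intervals overlapped. In the last of the 3 the interval of the female mice included 0. The difference between the sexes was not tested in any of them, and mouse, sex and library cannot be told apart with 1 mouse of each sex in each library. Cxcl1 in lesional fibroblast-like nuclei had a log2 ratio of 3.70 (2.25 to 6.24) between the female mice, whereas it was -0.78 (-1.63 to 0.02) between the male mice. Cxcl10 in lesional astrocyte-like nuclei was at least 10.6-fold lower under the label Cxcl12-cKO in the female mice and had a log2 ratio of 3.45 (1.78 to 6.86) in the male mice. Cx3cr1 in parenchymal myeloid-like nuclei had a log2 ratio of -0.10 (-0.84 to 0.72) between the female mice, whereas it was 3.58 (1.78 to 7.02) between the male mice, the latter from 2 UMIs in 6 nuclei and 17 UMIs in 9 nuclei. At resolution 0.5 the parenchymal nuclei of the myeloid-like cluster led by Csf3r and Siglech held 1050 and 1040 CPM in the libraries. The part of the make-up of the class in the male ratio was not tested.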

How the results depend on the processing

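No paired analysis was possible because each genotype had 1 library. Over the alternatives that gave a value, the log2 ratio of Cxcl9 was -5.07 to -1.56 in fibroblast-like and -4.84 to -2.69 in myeloid-like nuclei, that of Cxcl10 -2.20 to -1.30 and -2.78 to -1.12, that of Cx3cr1 in myeloid-like nuclei -0.72 to -0.38 and that of Cxcr6 0.51 to 1.79, each with the sign unchanged. In the male mice only, the log2 ratio was 1.79 for Cxcr6 in T-cell-like nuclei, 3.45 for Cxcl10 in astrocyte-like nuclei, -0.78 for Cxcl1 and -5.07 for Cxcl9 in fibroblast-like nuclei and 0.94 for Cx3cl1 in myeloid-like nuclei. In the female mice only, it was -3.41 for Cxcl10 in astrocyte-like nuclei (a bound against 3 UMIs), 3.70 for Cxcl1 and 0.44 for Cx3cr1 in fibroblast-like nuclei and -0.10 for Cx3cr1 in parenchymal myeloid-like nuclei. With nuclei counted in place of UMIs, a setting added after the data were seen like that without the 3 highest nuclei, it was 0.18 for Cx3cr1 in astrocyte-like, -1.56 for Cxcl9 in fibroblast-like and -0.38 for Cx3cr1 in myeloid-like nuclei. With classes taken from the markers of each nucleus, Cx3cr1 was at -0.48 in fibroblast-like and -0.57 in myeloid-like nuclei, and with nuclei thinned at -0.54 in lesional and -0.14 in parenchymal myeloid-like nuclei. Without the highest doublet scores Cx3cr1 was at 0.80 in astrocyte-like nuclei, with nuclei weighted alike Cxcl9 at -2.69 in myeloid-like nuclei, and without the 3 highest nuclei Cxcl10 at -2.78 there. The cause of these moves was not tested. Genes past the fold fell to 0 on the lower and 0 on the higher side in fibroblast-like nuclei and to 1 on the lower side in myeloid-like nuclei at a minimum of 200 UMIs, which left fewer genes, and to 0 on the higher side in fibroblast-like nuclei at 2-fold. Among log2 ratios of lesional fibroblast-like, myeloid-like, T-cell-like and astrocyte-like nuclei, and of other classes, 166 and 146 stayed within their main counting interval. Counts of genes past the fold are not among these. Another 14 and 11 moved further, and 3 and 2 were reversed. A reversal was counted only where the main interval excluded 0, so changes of sign in other ratios are not among these. In the lesion, 5 of 12 alternatives kept the sign of Cxcl10 in astrocyte-like nuclei. In fibroblast-like nuclei 2 of 12 kept that of Cx3cl1 and 6 of 12 that of Cx3cr1. Of the levels in CPM, 511 stayed within their counting interval and 115 moved outside it. Cxcl9 and Cxcl10 gave no ratio in myeloid-like nuclei of the male mice, with 3 and 0 UMIs each, nor did Cx3cl1 and Cx3cr1 in the unnamed classes at resolution 0.5 or by own markers. Depth limits Cxcr3 and Cxcl13, with 24 and 12 UMIs in all.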
